A study of Mus musculus with 8 samples.

Results

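The genes of oxidative phosphorylation were examined in RNA sequencing of mouse aortic tissue: the genes of the mitochondrial genome, and the nuclear genes named Nduf, Uqcr, Atp5, Cox4 to Cox8 and Sdha to Sdhd. The names were matched to the gene symbols of the count table. They gave 125 genes, of which 14 with names marked as pseudogenes and 5 with fewer than 10 counts over all libraries were left out. The remaining 106 genes, 13 mitochondrial and 93 nuclear, were followed among the 35896 genes of the table. All but Cox7b2, a testis isoform with 0 to 6 counts per library, passed the filter on low counts and were tested (13 mitochondrial and 92 nuclear genes). The name rule kept 1 processed pseudogene, Ndufb4c, which is identical to the complex I gene Ndufb4 over 390 bases and held 8437 counts in all against 7976 for Ndufb4, so the counts of both are uncertain. The aortas came from male C57BL6 mice implanted with osmotic minipumps at 11 weeks of age. The pumps delivered 2.8 mg/kg of angiotensin II per day for 2 weeks. Tissue was taken at the end of the infusion (AngII), 2 weeks later (AngII+2W), 3 weeks later (AngII+3W), or from untreated age-matched littermates (CTRL). Each group holds 2 libraries, and each library is a pool of aortic tissue from 2 mice, so that 16 mice stand behind 8 libraries and no single animal can be read. Per the paper, a part of each aorta went to RNA sequencing, and which part is not stated. The tissue of that part was used whole. A difference in the number of cells of a type and a difference in RNA per cell therefore cannot be told apart.

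Oxidative phosphorylation moves electrons from NADH and succinate to oxygen through complexes I to IV of the inner mitochondrial membrane, and complex V, the ATP synthase, uses the resulting proton gradient to make ATP. Complexes I, III, IV and V mix subunits from both genomes, whereas complex II is wholly nuclear. Mitochondrial genes are transcribed as long polycistronic RNAs by the polymerase Polrmt with the factor Tfam, while the nuclear genes are spread over many chromosomes and are known targets of NRF1, GABPA, YY1 and the estrogen-related receptors, which act with the coactivator Ppargc1a. Several complex IV subunits have a second isoform that marks heart, skeletal muscle or brown fat.

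The libraries held 18130441 to 21498200 counts. Smooth muscle markers were present in every library, with a summed level of 1855 to 9897 CPM (counts scaled to a common library size after TMM normalization) over 8 genes, highest in both CTRL libraries. Other tissues were present too. The 10 cardiac muscle markers summed to 5603 and 2490 CPM in the CTRL libraries, 1514 and 962 in those of AngII, 257 and 88.3 in those of AngII+2W and 6380 and 494 in those of AngII+3W. The library AngII+3W replicate 1 stood apart, with 3390 CPM over the 12 skeletal muscle markers against 6.28 to 76.8 in the other 7 libraries. Endothelial markers (5 genes, 866 to 1161 CPM) and adipocyte markers (8 genes, 6505 to 9871 CPM) were found in every library. The 7 brown fat markers were present throughout as well and summed to 1630 to 3308 CPM, and in AngII the 7 macrophage markers summed to 719 and 1130 CPM against 380 and 278 in CTRL. The part of these tissues in the results that follow was not tested.

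The mitochondrial genome has near-identical copies in the nuclear genome, and these share its counts. In the GRCm38 annotation (GENCODE M21), 8 nuclear pseudogenes on chromosomes 1 and 2 with counts in the table matched 6 of the 13 mitochondrial genes at 95% identity or more. mt-Co3, subunit 3 of complex IV (chrM:8607-9390, plus strand), and Gm28437 (chr1:24613189-24613971, minus strand) were identical over 783 aligned bases. mt-Co2 (chrM:7013-7696) and Gm28661 (chr1:24614885-24615565) were identical over 681. The stretches of 75 bases that follow are printed because they show what a read had to be assigned by. Capitals mark the only base of the alignment that differs; the pairs without capitals are identical throughout.
mt-Co3: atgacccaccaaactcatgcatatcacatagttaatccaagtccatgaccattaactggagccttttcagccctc
Gm28437: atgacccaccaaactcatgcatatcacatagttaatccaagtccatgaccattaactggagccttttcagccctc
mt-Co2: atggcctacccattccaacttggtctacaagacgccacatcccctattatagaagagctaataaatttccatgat
Gm28661: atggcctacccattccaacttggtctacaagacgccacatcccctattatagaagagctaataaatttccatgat
mt-Nd3: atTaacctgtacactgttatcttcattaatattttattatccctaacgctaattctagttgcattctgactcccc
Gm28438: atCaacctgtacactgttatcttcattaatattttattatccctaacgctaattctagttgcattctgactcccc
mt-Co1: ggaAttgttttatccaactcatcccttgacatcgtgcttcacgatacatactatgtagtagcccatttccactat
Gm29216: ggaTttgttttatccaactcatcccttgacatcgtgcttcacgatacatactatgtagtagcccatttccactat
Positions are counted from 1 at the start of the mitochondrial transcript. mt-Nd3 and Gm28438 differ by T3C over 345 aligned bases, and mt-Co1 and Gm29216 by A1066T over 483.

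How counts fell between a gene and its copy differed from library to library. mt-Co3 took 22.7 and 21.3% of the counts of the pair in the CTRL libraries, 28.2 and 24.9% in those of AngII, 33.5 and 29.8% in those of AngII+2W and 39.2 and 34.3% in those of AngII+3W. These ranges do not overlap between any of the 4 groups. For mt-Co2 the share ran from 48.1% in AngII+3W replicate 1 to 76.1% in AngII+2W replicate 1, with CTRL at 69.3 and 70.6%. For mt-Co1, where the copy covers 31.3% of the gene, it stayed between 91.5 and 93.3%. mt-Nd3 kept at least 98.3% of its pair in 7 libraries and 69.9% in AngII+3W replicate 1, where Gm28438 was given 19282 counts against at most 521 elsewhere. The same library was the only one with counts (2281) on Gm28439, a copy of part of mt-Nd4. Because of this, the main mitochondrial results are given as listed and also with the counts of the copies added to the gene.

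**Figure D1:**
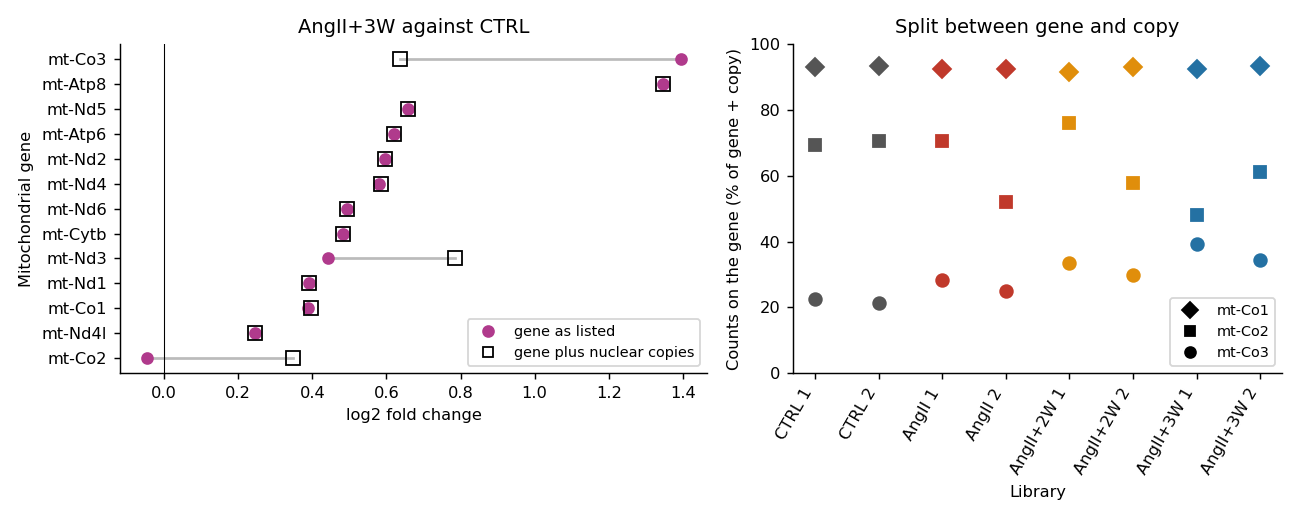
Left, log2 fold change (x axis) of the 13 mitochondrial genes (y axis) in AngII+3W against CTRL, as listed (filled circles) and with nuclear copies added (open squares). Right, percent of the counts of a gene and its copy that lie on the gene (y axis) in each of 8 libraries (x axis, replicate number after the group). mt-Co3 falls from 1.39 to 0.64 and mt-Co2 goes from -0.05 to 0.35 once copies are added, and the mt-Co3 share climbs from 21.3 to 22.7% in CTRL to 34.3 to 39.2% in AngII+3W.

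Mitochondrial transcripts were the most abundant members by far. The 13 genes took between 8.15% (Wilson 95% interval 8.14 to 8.17) of all counts in AngII replicate 2 and 18.3% (18.3 to 18.4) in AngII+3W replicate 1, and the 93 nuclear genes 1.72 to 2.40%. These intervals cover counting error only. With the copies in the numerator the mitochondrial share was 9.46 to 21.3%. Per kilobase of transcript, averaged over 8 libraries, the mitochondrial genes ran from 28038 CPM per kb for mt-Co1, the catalytic subunit of complex IV, to 2739 for mt-Nd6, the member on the other strand. All 13 lay above the highest nuclear gene, Atp5b, the catalytic beta subunit of ATP synthase, at 1161 CPM per kb. The median nuclear gene stood at 168 CPM per kb. Levels of the shortest transcripts, mt-Atp8 (204 bases), mt-Nd4l (297) and mt-Nd3 (348), and of genes that overlap their neighbour (mt-Atp8 with mt-Atp6, mt-Nd4l with mt-Nd4) are less certain, since shared bases have to be divided between genes.

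Within the mitochondrial counts as listed, mt-Co1 made up 31.9 to 38.6% in a library and mt-Cytb, the core of complex III, at most 14.1%. The 7 complex I genes were led by mt-Nd4, at 8.54 to 10.7%. mt-Co3 made up 1.92 to 4.69% as listed and 7.95 to 10.7% with its copy. mt-Atp8, a small subunit of the membrane part of ATP synthase, varied most in proportion, from 0.229 to 1.19%. Its level was 861 and 239 CPM in the CTRL libraries, 632 and 187 in those of AngII, 658 and 546 in those of AngII+2W and 2349 and 449 in those of AngII+3W, so that replicates of a group lay as far apart as the groups.

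Summed over the 13 genes, the mitochondrial level was 132627 and 104195 CPM in the CTRL libraries, 119121 and 77859 in those of AngII, 121209 and 109171 in those of AngII+2W and 197585 and 131408 in those of AngII+3W. AngII+3W replicate 1 was the highest of the 8, its partner lay between the CTRL libraries, and the AngII group overlapped CTRL. The nuclear sum was 18068 and 23676 CPM in the CTRL libraries, 19588 and 16429 in those of AngII, 20522 and 21334 in those of AngII+2W and 22277 and 17155 in those of AngII+3W. All groups overlapped CTRL in this sum. The ratio of the mitochondrial to the nuclear sum was 5.87 ± 2.08 (mean ± SD, n = 2) for CTRL, 5.41 ± 0.949 for AngII, 5.51 ± 0.558 for AngII+2W and 8.26 ± 0.855 for AngII+3W. Both AngII+3W libraries, at 8.87 and 7.66, were above the other 6, of which CTRL replicate 1 was nearest at 7.34. With copies added the AngII+3W ratios were 10.3 and 8.66 and that of CTRL replicate 1 was 8.38. No test was made of sums over genes.

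**Figure D2:**
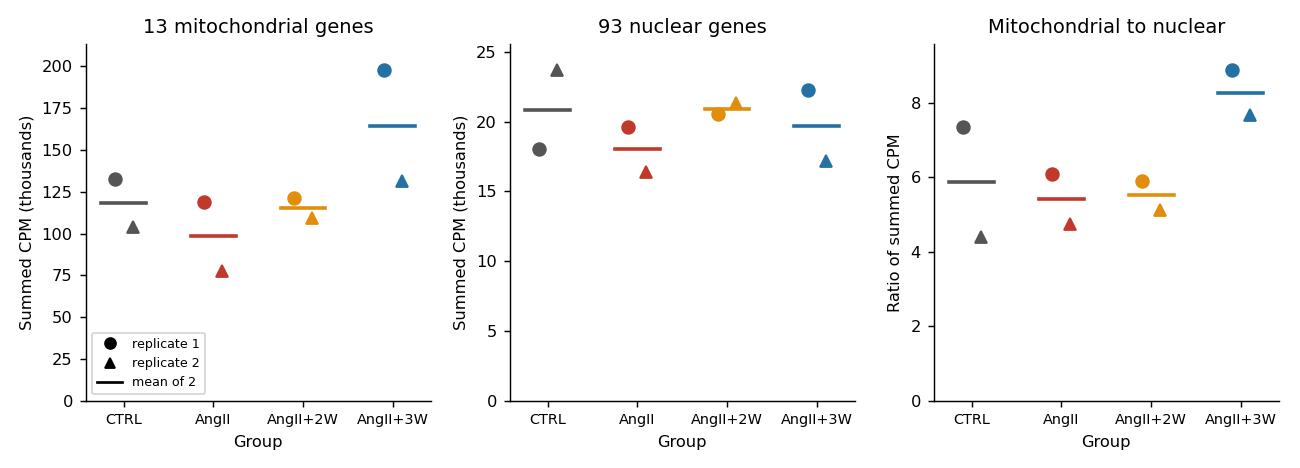
Summed CPM (y axes, left and middle) and the ratio of the sums (y axis, right) for 13 mitochondrial and 93 nuclear genes in each group (x axis); circles are replicate 1, triangles replicate 2 and bars the mean of 2. Replicates of CTRL differ in opposite directions in the left and middle panels, and the ratio is highest in both AngII+3W libraries, at 8.87 and 7.66.

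In CTRL, AngII and AngII+3W, the 2 libraries of a group differed along these genes about as much as the groups did, and in AngII+2W less. In CTRL, replicate 2 was above replicate 1 for 84 of 92 nuclear genes and for 0 of 13 mitochondrial genes, with median log2 differences of 0.35 and -0.37. In AngII, replicate 2 was higher for 7 of 92 nuclear and 0 of 13 mitochondrial genes (medians -0.24 and -0.70), and in AngII+3W for 7 and 0 (medians -0.34 and -0.72). In AngII+2W the counts were 55 and 2 (medians 0.04 and -0.22). Over all 17182 genes tested, replicate 2 was higher for 48.3 to 51.8% and the medians were within -0.01 and 0.01. Over the 8 libraries, the standard deviation of log2 CPM had a median of 0.42 for mitochondrial genes, 0.21 for nuclear genes and 0.24 for all genes tested.

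**Figure D3:**
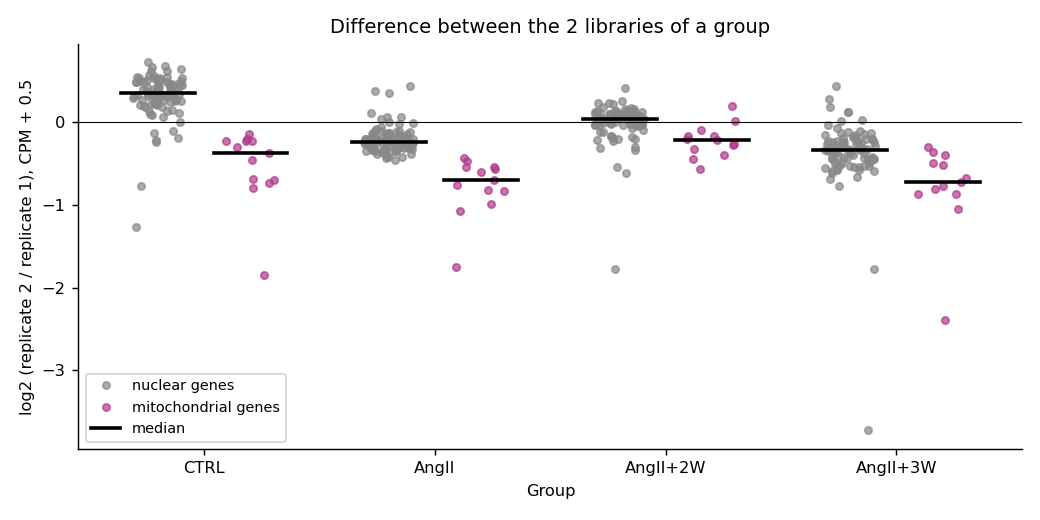
The log2 ratio of replicate 2 to replicate 1 (y axis, CPM with 0.5 added) for each nuclear (grey) and mitochondrial (purple) gene in the 4 groups (x axis), with medians as bars. The nuclear median is 0.35 in CTRL and -0.34 in AngII+3W, and the mitochondrial median is below 0 in all 4 groups.

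Among the nuclear genes, complex V held the largest nuclear sum, 5213 to 7285 CPM over 17 genes, complex I 4326 to 6380 over 37 genes (Ndufb4c among them), complex IV 3380 to 5154 over 19, complex III 1793 to 2604 over 8, and complex II 1529 to 2227 over 4. The 8 complex I assembly factors named Ndufaf, which build the complex but do not stay in it, summed to 115 to 153 CPM. In CTRL replicate 2 the sums of complexes I, III, IV and V were the highest of the 8 libraries. The summed level of the 16 citric acid cycle genes was, like the nuclear sum, lowest in AngII replicate 2 (8846 CPM) and stood at 12567 CPM in CTRL replicate 2 and 12706 in AngII+3W replicate 1. The brown fat marker sum had another order, highest in AngII replicate 1 (3308 CPM) and lowest in AngII+2W replicate 1 (1630 CPM).

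The start regions of the nuclear genes shared sequence letters. RefSeq promoters on GRCm38.p6, running from 250 bases before to 50 after the start, were found for 76 of the 93 genes, and the letters of 4 motifs were searched on both strands. The NRF1 letters GCGCATGC were in 14.8% of the 81 member promoters and in 2.71% of all 32851 promoters. For GABPA (CCGGAAG) the shares were 23.5 and 8.86%, for YY1 (AAGATGGC) 13.6 and 2.75%, and for the estrogen-related receptors (TCAAGGTCA) 2.47 and 0.423%. At least 1 of the 4 was in 44.4% of member promoters and 13.7% of all promoters. The NRF1 letters extended by GC read the same on both strands, so that such a site is found on each strand, and 9 of the 11 YY1 matches began 10 to 38 bases after the start and include the letters ATG. By complex, 10 of 15 complex V genes, 14 of 32 complex I genes and 3 of 14 complex IV genes held a match. The promoters of Cox6a1, of Cox8a and of its muscle and brown fat isoform Cox8b are printed as examples, with capitals for the matches. Cox8b has none of these letters in the window, but neither has Cox7a2 nor its muscle and brown fat isoform Cox7a1. The printed promoters lie at chr5:115348909-115349208, chr19:7217567-7217866 and chr7:140900397-140900696, all on the minus strand.
Cox6a1: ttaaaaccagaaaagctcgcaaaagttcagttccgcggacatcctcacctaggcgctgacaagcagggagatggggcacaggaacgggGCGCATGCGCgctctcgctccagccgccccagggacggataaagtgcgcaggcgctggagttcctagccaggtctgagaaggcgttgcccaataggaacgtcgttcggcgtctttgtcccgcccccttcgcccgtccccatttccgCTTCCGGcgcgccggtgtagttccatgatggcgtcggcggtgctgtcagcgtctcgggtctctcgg
Cox8a: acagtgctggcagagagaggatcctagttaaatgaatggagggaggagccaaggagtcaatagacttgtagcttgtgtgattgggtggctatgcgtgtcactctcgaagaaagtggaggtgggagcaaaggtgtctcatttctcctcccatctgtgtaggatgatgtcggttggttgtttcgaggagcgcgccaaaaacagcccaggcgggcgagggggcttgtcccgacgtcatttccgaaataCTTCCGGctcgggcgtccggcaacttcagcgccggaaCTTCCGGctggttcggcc
Cox8b: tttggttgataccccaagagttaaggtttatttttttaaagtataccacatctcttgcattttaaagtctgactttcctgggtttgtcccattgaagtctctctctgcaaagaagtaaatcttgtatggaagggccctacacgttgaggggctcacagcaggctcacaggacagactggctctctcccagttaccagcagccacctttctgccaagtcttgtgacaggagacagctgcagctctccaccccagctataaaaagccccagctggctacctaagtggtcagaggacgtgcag
In the Cox6a1 promoter the capitals are an NRF1 match on both strands 162 and 160 bases before the start and a GABPA match 16 before it. Cox8a has GABPA matches 5 bases before and 32 after the start.

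AngII against CTRL sets the end of the infusion beside untreated mice. No sham pump is named, so the pump and angiotensin II cannot be told apart. The paper took CTRL mice at each time point, and which of them are in the CTRL libraries is not stated. In edgeR's quasi-likelihood fit, with p adjusted by the Benjamini-Hochberg method (FDR), 0 of the tested genes passed 0.05, while 5.10% of all genes did. The nuclear genes lay mostly lower, none past the test. Their median log2 fold change was -0.22 against -0.01 over all genes, and 81 of 92 were below 0 against 51.0% of all genes. In 25 of 92, both AngII libraries lay below both CTRL libraries, a share close to the 24.9% of all genes. The mitochondrial median was -0.20, with 12 of 13 below 0, and with copies added it was also -0.20, with 0 of 13 above 0. At an unadjusted p under 0.05 there were 1 higher and 2 lower genes, against 20.2% of all genes. These medians moved with single libraries. Without CTRL replicate 1 the nuclear and mitochondrial medians were -0.39 and 0.00, and without CTRL replicate 2 they were -0.02 and -0.45. Without AngII replicate 1 they were -0.34 and -0.62, and without AngII replicate 2 they were -0.12 and 0.07. Cell type markers moved in the same comparison: by edgeR, 4 of 7 macrophage markers (7 above 0) and 2 of 6 fibroblast markers (6 above 0) were called higher, and 6 of 8 smooth muscle markers (8 below 0) were called lower. The fibroblast sum was 2140 and 1292 CPM in CTRL against 7997 and 12941 in AngII. Of the 10 cardiac markers, 9 were below 0 and 1 above, with 0 called. Of the 7 brown fat markers, 1 was called higher and 1 lower. The part of these cell types in the medians was not tested.

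Ndufa4l2 came nearest to the threshold. It is a paralog of the complex IV subunit Ndufa4 and a known hypoxia-inducible gene, on chromosome 10 (chr10:127514967-127517154). Its level was 3.46 and 4.56 CPM in the CTRL libraries, 8.05 and 10.6 in those of AngII, 4.53 and 6.18 in those of AngII+2W and 3.01 and 4.24 in those of AngII+3W. Both AngII libraries were the highest of the 8, and the counts behind them were 149 and 224 against 56 to 115 elsewhere. The log2 fold change of AngII against CTRL was 1.22 ± 0.28 (SE), at an FDR of 0.0515. DESeq2 and limma-voom each called it and no other member, at adjusted p of 0.0101 and 0.0471, where they called 9.27 and 4.89% of all genes. Over all alternatives its adjusted p ran from 0.0101 to 0.287, and its log2 fold change stayed between 1.00 and 1.42 with any 1 library left out. The log2 fold change between AngII+3W and AngII was -1.36 ± 0.28 (FDR 0.0637). Its partner Ndufa4, at 167 to 264 CPM, had a log2 fold change of -0.36 in AngII. Per length, Ndufa4l2 stood at 0.70 to 3.62% of Ndufa4.

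The 8 nuclear genes with the smallest p on the lower side were all complex I subunits. They were Ndufa1, Ndufs7, Ndufa7, Ndufb8, Ndufs6, Ndufa13, Ndufa5 and Ndufb10, with log2 fold changes of -0.37 to -0.56. In each both AngII libraries were below both CTRL libraries, which a pick by smallest p from the same values favours. Of all 92 nuclear genes 25 had this order, and of all genes 24.9%. Ndufs7, which carries an iron-sulfur cluster of the electron path, stood at 101.5 and 161 CPM in CTRL and 89.1 and 88.4 in AngII (log2 fold change -0.56 ± 0.21, FDR 0.189). Ndufa1, an accessory subunit, stood at 111 and 140 CPM in CTRL and 97.8 and 82.6 in AngII (-0.48 ± 0.16, FDR 0.137). For both genes the CTRL libraries lay farther from each other than the lower CTRL library lay from the higher AngII library. Of the 37 nuclear genes assigned to complex I, 36 were below 0, with a median of -0.25. These include the pseudogene Ndufb4c but not the Ndufaf genes, nor Ndufa4 and Ndufa4l2, which were counted with complex IV. The complex IV and V medians were -0.26 and -0.17. On the higher side Atp5g2, which encodes the same subunit c of ATP synthase as Atp5g1 and Atp5g3, had a log2 fold change of 0.44 ± 0.20 (FDR 0.272), at 36.5 and 33.3 CPM in CTRL and 50.2 and 44.4 in AngII. Part of its sequence is identical in the pseudogene Gm10175, so its counts are uncertain. The assembly factors Ndufaf4 and Ndufaf1 stood at log2 fold changes of 0.32 and 0.19 with overlapping groups.

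**Figure D4:**
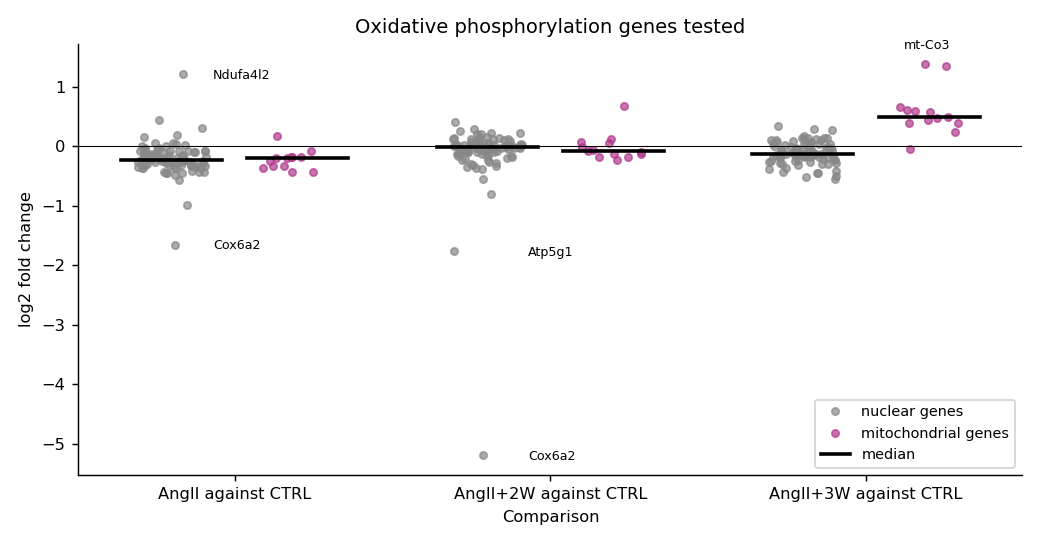
The log2 fold change against CTRL (y axis) of each of 92 nuclear (grey) and 13 mitochondrial (purple) genes in the 3 comparisons (x axis), with medians as bars. Medians are close to 0 in AngII+2W; in AngII+3W the mitochondrial median is 0.49 and the nuclear median -0.12, and Cox6a2 lies at -5.19 in AngII+2W.

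AngII+2W against CTRL asks what was left 2 weeks after the infusion. Again 0 of the tested genes passed, as did 0 (0%) of all genes; limma-voom called 0 and DESeq2 called 1. The nuclear median log2 fold change was -0.01, with 51 of 92 below 0 against 50.0% of all genes, and the mitochondrial median was -0.08, with 9 of 13 below 0. Without CTRL replicate 1 the nuclear and mitochondrial medians were -0.18 and 0.18, and without CTRL replicate 2 they were 0.17 and -0.26. Without AngII+2W replicate 2 the mitochondrial median was 0.02. Both AngII+2W libraries lay below both CTRL libraries in 12 of 92 nuclear genes, where 22.2% of all genes did. Only Cox6a2 and Atp5g1 had an unadjusted p under 0.05, both lower, against 10.7% of all genes.

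Cox6a2, the heart and skeletal muscle isoform of a complex IV subunit, was the most variable of the tested genes. Its counts were 946 and 399 in the CTRL libraries, 208 and 199 in those of AngII, 34 and 2 in those of AngII+2W and 933 and 62 in those of AngII+3W. In CPM, the order of the 8 libraries by Cox6a2 (50.2 CPM in AngII+3W replicate 1, 46.1 in CTRL replicate 1, down to 0.11 in AngII+2W replicate 2) was the order of their cardiac marker sums. The log2 fold change was -5.19 ± 1.36 in AngII+2W (FDR 0.291) and -1.65 in AngII, and in AngII+3W it was -0.28, or -3.28 without replicate 1 of that group. DESeq2 called it in AngII+2W, at an adjusted p of 0.0340, where it called 2.17% of all genes. Its partner Cox6a1, found in most tissues, did not share this order: 351 and 538 CPM in the CTRL libraries, 367 and 329 in those of AngII, 518 and 510 in those of AngII+2W and 335 and 405 in those of AngII+3W. Atp5g1, on chromosome 11, followed the cardiac markers less closely, at 56.0 and 32.7 CPM in the CTRL libraries, 21.9 and 22.9 in those of AngII, 15.5 and 10.5 in those of AngII+2W and 50.8 and 14.6 in those of AngII+3W. Its log2 fold change in AngII+2W was -1.76 ± 0.54 (FDR 0.311). The cardiac marker Myh6, a heart myosin, stood at 2817 and 1263 CPM in CTRL and at 94.4 and 1.88 in AngII+2W, and 8 of the 10 cardiac markers had an unadjusted p under 0.05 on the lower side there. How far heart tissue in the samples set these values was not tested.

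**Figure D5:**
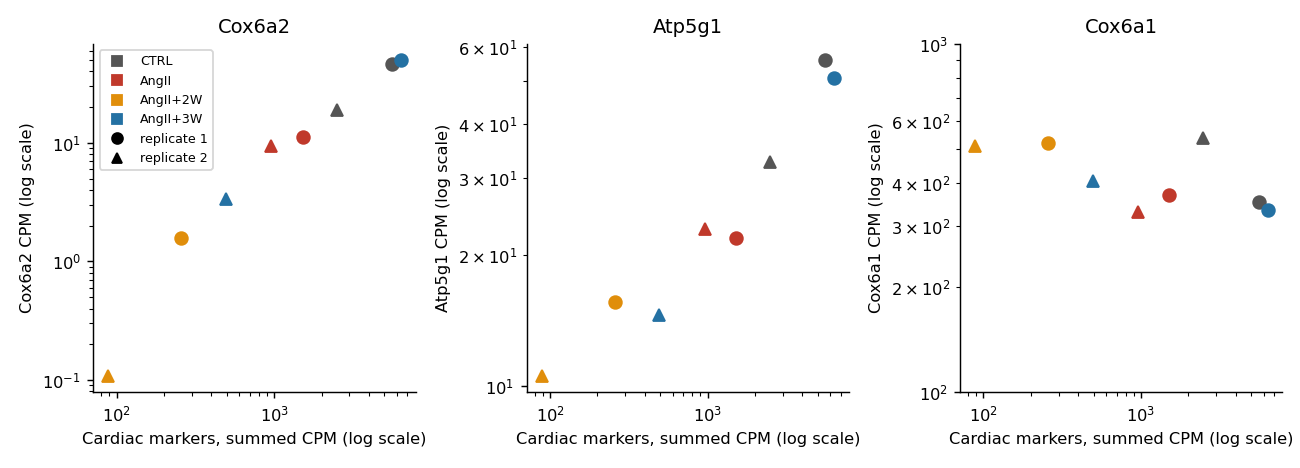
CPM of Cox6a2, Atp5g1 and Cox6a1 (y axes, log scale) against the summed CPM of 10 cardiac markers (x axes, log scale) in the 8 libraries; colours are groups, circles replicate 1 and triangles replicate 2. Cox6a2 rises from 0.11 to 50.2 CPM along the axis and Atp5g1 from 10.5 to 56.0, whereas Cox6a1 stays between 329 and 538.

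The mitochondrial gene with the highest AngII+2W value was mt-Co3, at a log2 fold change of 0.68 as listed (4327 and 4051 CPM, both above CTRL) and 0.17 with its copy. Among the nuclear genes, Cox6b2, mostly known from testis, had a log2 fold change of -0.79 at 0.97 to 2.23 CPM over all libraries, Cox4i2, a lung isoform, -0.55 at 0.98 to 1.93 CPM, and the complex I subunits Ndufa11 and Ndufb7 -0.38 and -0.36 (FDR 0.485 and 0.532). On the higher side Sdha, the flavoprotein of succinate dehydrogenase, stood at 0.29, with 962 and 1228 CPM in CTRL and 1297 and 1382 in AngII+2W. Uqcr10, a small subunit of complex III, stood at 0.22, with both AngII+2W libraries (181 and 176 CPM) above CTRL (141 and 167). The other members of complex II were Sdhb at 0.03, Sdhc at -0.10 and Sdhd at 0.14.

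AngII+3W against CTRL asks what was left 3 weeks after the infusion, and here the medians of the genomes had opposite signs. As before 0 of the tested genes passed, against 0.285% of all genes, and by DESeq2 and limma-voom 0 as well. The mitochondrial median log2 fold change was 0.49, with 12 of 13 genes above 0 against 53.6% of all genes. As listed, 4 of 13, mt-Co3 among them, did not overlap CTRL on the higher side against 19.8%. With copies added, 13 of 13 were above 0 with a median of 0.58. mt-Co3 then overlapped CTRL, at 13004.5 CPM in AngII+3W replicate 2 against 14223.5 in CTRL replicate 1. The nuclear median was -0.12, with 66 of 92 below 0 against 46.4% of all genes and 9 of 92 not overlapping on the lower side against 18.3%. The difference of the medians was 0.62 (0.71 with copies). For another measure, the log2 ratio of the sums without copies, the within-group SD pooled over the groups was 0.31. The CTRL libraries lay far apart in that ratio, at 7.34 and 4.40 before the log. Without AngII+3W replicate 1, the library with skeletal muscle markers, the mitochondrial median was 0.09 and the nuclear median -0.27. Without replicate 2 they were 0.78 and 0.02, and without CTRL replicate 2, 0.27 and 0.07.

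Of the mitochondrial genes, mt-Co3 as listed had the largest difference, at 3227 and 1996 CPM in CTRL and 9262 and 4461 in AngII+3W. Its log2 fold change was 1.39 ± 0.46 at an unadjusted p of 0.0164 (edgeR, FDR 0.267), and with Gm28437 added 0.64 ± 0.42 (FDR 0.576). mt-Atp8 followed at 1.35 ± 0.88, which rested on AngII+3W replicate 1: its range was -0.30 to 2.53 with any 1 library left out. mt-Nd5 stood at 0.66 ± 0.31 (FDR 0.443), with 7423 and 6350 CPM in CTRL and 13372 and 8351 in AngII+3W, and had the smallest p once copies were added. mt-Atp6 stood at 0.62, mt-Nd2 at 0.60, mt-Nd4 at 0.58, mt-Nd6 at 0.49, mt-Cytb at 0.48, mt-Nd3 at 0.44 (0.78 with its copy), mt-Nd1 and mt-Co1 at 0.39 and mt-Nd4l at 0.24. mt-Co2 was the exception, at -0.05 as listed and 0.35 with its copy.

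On the nuclear side, Ndufa11 and Ndufa13, both accessory subunits of complex I, had unadjusted p under 0.05, which 12.5% of all genes had. Ndufa13 stood at 123 and 179 CPM in CTRL and 114 and 96.5 in AngII+3W (log2 fold change -0.52 ± 0.20, edgeR FDR 0.347), and Ndufa11 at 49.0 and 62.8 against 46.1 and 36.7 (-0.43 ± 0.17, FDR 0.342). Ndufaf8, Cox8b, Ndufa7, Ndufs7, Uqcr11 and Ndufv3 followed at -0.30 to -0.55. The highest nuclear values were those of Ndufaf5 (0.34), Atp5g2 (0.30) and Ndufaf4 (0.28). That of Atp5g2 is uncertain, since its partial copy Gm10175 was lower, at 759 and 566 counts against 862 and 1277 in CTRL. By complex, 31 of 37 nuclear genes assigned to complex I (Ndufb4c included) and 14 of 18 complex IV genes were below 0, against 10 of 17 in complex V and 2 of 4 in complex II.

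Between the AngII groups, the libraries of AngII are the shared partner of 2 comparisons, so these are not independent of each other or of the values given before. In AngII+2W against AngII, 0 of the tested genes passed (all genes 0.163%), 6 were higher and 2 lower at an unadjusted p under 0.05 (all genes 15.0%), and DESeq2 and limma-voom called 0. The nuclear median log2 fold change was 0.18, 74 of 92 were above 0 (all genes 49.6%), and in 48 of 92 both AngII+2W libraries lay above both AngII libraries (all genes 26.8%). Among them were Cox6a1 at 0.56, Ndufb8 at 0.45, Ndufa1 at 0.44, Atp5e at 0.43, Cox7a2 at 0.40 and Uqcr10 at 0.39. The 2 lower genes were Cox6a2 at -3.54 and Ndufa4l2 at -0.80. The mitochondrial median was 0.19, or 0.18 with copies. Without AngII replicate 2 the nuclear and mitochondrial medians were 0.05 and -0.09, and without AngII replicate 1 they were 0.29 and 0.54. Of the 7 brown fat markers, 3 were above 0 and 4 below in this comparison, with 3 lower and 0 higher at an unadjusted p under 0.05. All 7 macrophage and all 6 fibroblast markers were below 0, with fibroblast sums of 7997 and 12941 CPM in AngII against 4172 and 2779 in AngII+2W. Of the 8 smooth muscle markers, 7 were above 0 and 1 below, with 6 higher at an unadjusted p under 0.05 by edgeR. Of the 10 cardiac markers, 8 were below 0 and 2 above, and all 8 adipocyte markers were below 0. The part of these cell types in these values was not tested.

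In AngII+3W against AngII, 0 of the tested genes passed (all genes 1.61%) and 4 higher genes, all mitochondrial, and 1 lower gene, Ndufa4l2, had an unadjusted p under 0.05 (all genes 17.8%). All 13 mitochondrial genes were above 0 (all genes 54.0%), with a median of 0.72, or 0.75 with copies, and as listed 7 of 13 did not overlap (all genes 24.8%). As listed they were led by mt-Atp8 at 1.77, mt-Co3 at 1.22, mt-Nd4 at 0.91 and mt-Nd5 at 0.84. With copies mt-Co3 stood at 0.75, below mt-Nd3 at 0.94, mt-Nd4 at 0.92 and mt-Nd5 at 0.84, and its libraries overlapped between the groups. DESeq2 called 5 genes, namely Ndufa4l2, mt-Co1, mt-Cytb, mt-Nd4 and mt-Nd5 (all genes 5.52%), and limma-voom called 0. The nuclear median was 0.11. Without AngII+3W replicate 1 the mitochondrial and nuclear medians were 0.35 and -0.08, and without AngII replicate 2 they were 0.45 and -0.01. At an unadjusted p under 0.05, 9 of 10 tested skeletal muscle markers were higher, with AngII+3W replicate 1 at 3390 CPM and replicate 2 at 11.4, and 7 of 7 macrophage markers were lower. In AngII+3W against AngII+2W, 0 of the tested genes passed by any of the 3 tools (all genes 0% by edgeR), with 3 higher (Atp5g1, Cox6a2 and mt-Nd5) and 1 lower (Uqcr10) at an unadjusted p under 0.05 (all genes 8.83%). Without AngII+3W replicate 2, the comparison called 2 genes, Atp5g1 and Cox6a2. The mitochondrial median was 0.61, or 0.55 with copies, with 13 of 13 above 0 (all genes 52.1%). As listed, 8 of 13 did not overlap (all genes 20.7%). The nuclear median was -0.07. Without AngII+3W replicate 1 the mitochondrial and nuclear medians were 0.18 and -0.26, and without AngII+3W replicate 2 they were 0.84 and 0.05. There 8 of 10 cardiac and 10 of 10 tested skeletal muscle markers were higher at an unadjusted p under 0.05. The part of these tissues in the mitochondrial values was not tested.

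The tissue isoforms of complex IV differed in how they varied. Per length, Cox8b, the muscle and brown fat isoform, stood at 139 to 206% of Cox8a in the 8 libraries. Cox7a1, likewise a muscle and brown fat isoform, stood at 120 to 170% of Cox7a2. Both ratios were lowest in AngII+3W replicate 2 and the AngII+2W libraries, at 139 to 151% and 120 to 134%. The cardiac marker sum was also lowest there, at 88.3 to 494 CPM. The part of heart tissue in these ratios was not tested. Cox8b was at 287 and 473 CPM in the CTRL libraries, 317 and 250 in those of AngII, 328 and 320 in those of AngII+2W and 272 and 248 in those of AngII+3W (log2 fold change -0.55 ± 0.24 in AngII+3W, edgeR FDR 0.406). Cox6a2 ran from 0.018 to 12.6% of Cox6a1, and Cox4i2 and Cox6b2 stayed at 0.16 to 0.38% and 0.25 to 0.74% of Cox4i1 and Cox6b1. Cox7a2l, which helps to join complexes III and IV, stood at 33.7 to 42.7% of Cox7a2. None of the 13 isoform genes passed edgeR's test in a comparison with CTRL.

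Neighbouring pathways held 0 genes called by edgeR in each of the 3 comparisons with CTRL (all genes 5.10%, 0% and 0.285%): 37 other assembly factors, 15 electron carriers and exchangers, 22 genes of mitochondrial DNA expression, 14 regulators of biogenesis and 16 citric acid cycle genes. In AngII, 12 of 14 regulators and 12 of 16 citric acid cycle genes were below 0 and 16 of 22 genes of mitochondrial DNA expression above, where 51.0% of all genes were below 0. Ppargc1a stood at 147 and 79.3 CPM in the CTRL libraries, 193 and 108 in those of AngII, 64.6 and 41.1 in those of AngII+2W and 90.0 and 65.5 in those of AngII+3W. Its log2 fold change in AngII+2W was -1.09 ± 0.39 (edgeR FDR 0.376), and 4 of the 14 regulators had an unadjusted p under 0.05 there, all lower (all genes 10.7% in either direction). In the same comparison 9 of 10 cardiac markers were below 0, and of the 7 brown fat markers 3 were above and 4 below 0, with 1 higher and 3 lower at an unadjusted p under 0.05. Their part in the values of the regulators was not tested. Tfam was at 25.2 and 24.9 CPM in CTRL and 33.2 and 28.0 in AngII+3W (0.29 ± 0.13, edgeR FDR 0.407). Polrmt and Lrpprc, which stabilises mitochondrial messenger RNA, were within -0.18 and 0.07 in the 3 comparisons with CTRL. Cycs, the electron carrier cytochrome c, was at 0.44 in AngII+3W, where replicate 1 held 281 CPM and replicate 2 held 130.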

How the data were processed

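RNA was measured by ribosomal-RNA-depleted total RNA sequencing of 8 aorta libraries. The authors deposited estimated counts per gene, made with Salmon through the ARMOR workflow (FastQC, MultiQC, Salmon and edgeR are named per the labels, with build GRCm38.p6; the index held Ensembl GRCm38 cDNA), and the values are whole numbers. Columns left aside numbered 0. The test was that of edgeR 4.0.16, run in R 4.3.3 (TMM, filterByExpr, quasi-likelihood F-test with the legacy fit, all 8 libraries and 6 comparisons, 17182 genes, 4 residual degrees of freedom), with FDR under 0.05 as a call. The method was tested on simulated data. CPM use TMM library sizes. DESeq2 1.42.0 and limma 3.58.1 (voom), scaling, filter, block and left-out libraries were alternatives. Nuclear copies were found with BLAST 2.17.0 (at least 95% identity over 100 bases), and adding them was chosen after seeing the data. Library totals of 18130441 to 21498200 bound the counting error; Wilson 95% intervals cover only that. P-values measure the spread between pools of 2 mice. The labels do not say whether replicate libraries came from separate litters or days.

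Members and lists were chosen with earlier results of these data known. Named genes are all mitochondrial members, in each comparison with CTRL up to 8 nuclear members per direction by smallest p, complex II, the isoform pairs and set genes of the pathway lists; Myh6 and the genes named between the AngII groups were chosen after their values were seen. Positions come from GENCODE M21, lengths from its principal transcripts and promoters from RefSeq.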

Additional observations from a re-analysis of the deposited data

Results flagged for a closer look

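Counts were found on rows outside the set of mitochondrial genes, on the 8 nuclear copies. They made up 11.3% of the sum of mitochondrial genes and copies in the lowest library, AngII+2W replicate 1, and 13.996% in the highest, AngII+2W replicate 2. No control measures how many of these counts come from the copies themselves. Groups of 2 libraries are too small for a search for single outlying samples.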

How the results depend on the processing

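With 2 pools a group, 1 library could move most values. In AngII against CTRL the count of called genes went from 0 to 1 (Ndufa4l2) with every gene of at least 1 count, DESeq2, limma-voom, the newer quasi-likelihood fit, the replicate block, only the 2 groups compared, and without AngII+3W replicate 1 or 2, copies added or not. In AngII+2W against CTRL it was 1 (Cox6a2) by DESeq2 and 2 (Atp5g1, Cox6a2) without AngII+3W replicate 1 or 2, copies added or not. In AngII+2W against AngII it was 1 (Cox6a2) with only the 2 groups compared. In AngII+3W against AngII it was 1 (Ndufa4l2) with every gene of at least 1 count, the replicate block, and without AngII+3W replicate 2, and 5 by DESeq2. In AngII+3W against AngII+2W it was 2 without AngII+3W replicate 2. Leaving out 1 library gave 0 to 1, 0 to 2, 0 to 0, 0 to 0, 0 to 1 and 0 to 2 calls in the 6 comparisons. The cause was not tested.

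The mitochondrial minus nuclear median ranged with 1 library left out from -0.42 to 0.39 in AngII, -0.44 to 0.36 in AngII+2W and 0.20 to 1.04 in AngII+3W, the ends being those without CTRL replicate 2 and without CTRL replicate 1. With copies added they were -0.42 and 0.39, -0.44 and 0.36, and 0.28 and 1.04. Alternatives that left out no library gave 0.58 to 0.71 in AngII+3W against 0.62, and the replicate block gave 0.01, -0.04 and 0.59. Same-numbered libraries deviated together with correlations of -0.045 to 0.248 over all genes tested, so the numbers are not taken as pairs. These correlations do not speak to the mitochondrial genes alone. Their median difference of replicate 2 from replicate 1 was below 0 in CTRL (-0.37), AngII (-0.70), AngII+2W (-0.22) and AngII+3W (-0.72). Over all genes, AngII calls were 877, 1592 by DESeq2 and 0 without AngII replicate 2; AngII+2W calls were 0, 373 by DESeq2 and 5 without the filter on low counts; AngII+3W calls were 49, 587 by DESeq2, 200 without that filter, 4 with the block, 1 with library totals alone and 0 with only the 2 groups. With 1 library left out they ran from 0 to 1504, 0 to 275 and 0 to 463. The AngII+2W mitochondrial share was 13.3% with copies and 11.6% without. Of the named genes, none past the test, 25 of 48, 26 of 44 and 24 of 49 changed sign under some alternative.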
